A study of Mus musculus with 3 samples.

Results

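The genes described here encode the constitutive proteasome, its activators, its assembly chaperones and its inhibitor in mouse macrophages. They were chosen by symbol: every gene named Psma to Psmg followed by a digit and with at least 1 protein-coding transcript, without the interferon-induced subunit genes Psmb8, Psmb9 and Psmb10 and without pseudogenes. The rule took 47 of 55450 annotated genes, 21901 of which have a protein-coding transcript. No measured value entered it, but it was chosen with earlier results of these data known. It holds 14 subunits of the core particle, 17 of the regulatory particle, 5 activators, 3 chaperones of base assembly, 4 of core assembly, 1 inhibitor, the testis subunit Psma8 and the thymus subunit Psmb11. It also takes Psmc3ip, a meiotic recombination gene that shares only the letters of the symbol and encodes no proteasome subunit. Adrm1 and Sem1, which encode further subunits of the regulatory particle, have other symbols and are given with the pathway genes.

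Chromatin-associated RNA was sequenced in 3 libraries that form 1 group. Macrophages grown from bone marrow of C57BL/6J mice were given Lipid A at 100 ng/ml for 12 hours, kept without it for 12 hours after washing, and given 100 ng/ml again for 50 minutes. Lipid A is the part of bacterial lipopolysaccharide that Toll-like receptor 4 senses. Untreated cells and cells treated a single time were not analysed here, and each value is a level, not a response. The libraries, made without ribosomal RNA, are numbered as biological replicates 1, 2 and 3 and carry 1 donor identifier. Separate animals or cultures are not stated, so their spread may be technical, and it is all that the SDs and p-values measure. Replicate 1 started from 1 µg of RNA, replicate 2 from 250 ng and replicate 3 from 500 ng, and age and sex were not recorded. In such bulk RNA, fewer cells of a kind and less RNA per cell cannot be told apart, and neither can more transcription and slower release from chromatin.

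Depth lay between 13897176 and 19597343 expected counts a library, of which the 47 genes took 18360, 24357 and 22521 in replicates 1, 2 and 3. All 6 macrophage markers on a fixed list, also chosen with earlier results known, were detected. Their means lay between 42.9 TPM for Cd68 and 418 TPM for Adgre1. In the alignment-based tables none of the 6 neutrophil, 4 T cell, 4 B cell, 4 stromal and 3 erythroid markers was detected, and the highest mean among them was 0.26 TPM, for Col1a1. In the read-based tables the T cell markers Cd3d, listed at 0 by alignment, and Cd8a passed 1 TPM in every library, with means of 15.7 and 1.57 TPM, and the other 19 of these 21 markers did not. TPM is a relative level corrected for transcript length and scaled to the same sum in every library, and a gene is called detected here at 1 TPM or more in every library.

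The proteasome is the protease that degrades proteins tagged with ubiquitin. Its barrel-shaped core particle, called 20S, is built of alpha rings that gate the entrance and beta rings that hold the active sites. The regulatory particle, called 19S, caps the core, binds and removes ubiquitin and unfolds the substrate. In macrophages the peptides that it produces also feed antigen presentation on MHC class I, and interferon induces alternative catalytic subunits and the activator genes Psme1 and Psme2. Nfe2l1 is the transcription factor best known for raising proteasome subunit genes together, through antioxidant-type response elements, when the proteasome is impaired.

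The 250 bases before the start of 5 of these genes are printed to show what the text below refers to: the highest and the lowest of the catalytic genes, a gene each of the base and the lid, and the gene with the highest level of all. The sequences are RefSeq's for build GRCm38.p6, read 5′ to 3′ on the strand of the gene and ending at the base before its start. Capitals mark matches on either strand to TGACNNNGC, a core of the antioxidant-type element, to CCGGAAG, a site of ETS factors, or to TTTCNNTTT, a core of the interferon-stimulated element. Psmb6 is shown at chr11:70525107-70525356 on the plus strand and Psmb5 at chr14:54617996-54618245 on the minus strand. Psmd2 is shown at chr16:20651402-20651651 and Psmd11 at chr11:80428365-80428614, both on the plus strand, and Psme2 at chr14:55591102-55591351 on the minus strand.
Psmb6: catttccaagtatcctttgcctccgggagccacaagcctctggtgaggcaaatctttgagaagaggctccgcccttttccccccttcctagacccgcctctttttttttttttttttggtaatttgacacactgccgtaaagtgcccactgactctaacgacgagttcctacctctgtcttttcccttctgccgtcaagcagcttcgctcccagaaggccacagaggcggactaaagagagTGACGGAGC
Psmb5: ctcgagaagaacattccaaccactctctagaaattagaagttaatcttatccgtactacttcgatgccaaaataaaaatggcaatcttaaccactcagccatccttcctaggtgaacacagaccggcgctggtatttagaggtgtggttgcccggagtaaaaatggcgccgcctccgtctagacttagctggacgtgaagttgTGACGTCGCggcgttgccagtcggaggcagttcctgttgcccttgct
Psmd2: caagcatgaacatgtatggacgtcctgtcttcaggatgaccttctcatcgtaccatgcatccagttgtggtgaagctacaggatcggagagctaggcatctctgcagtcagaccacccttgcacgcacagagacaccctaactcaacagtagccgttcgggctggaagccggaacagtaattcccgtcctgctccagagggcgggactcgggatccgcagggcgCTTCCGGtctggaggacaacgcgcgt
Psmd11: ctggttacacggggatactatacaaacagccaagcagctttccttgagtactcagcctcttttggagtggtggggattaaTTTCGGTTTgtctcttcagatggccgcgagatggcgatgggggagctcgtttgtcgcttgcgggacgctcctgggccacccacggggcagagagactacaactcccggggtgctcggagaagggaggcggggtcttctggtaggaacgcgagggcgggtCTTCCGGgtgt
Psme2: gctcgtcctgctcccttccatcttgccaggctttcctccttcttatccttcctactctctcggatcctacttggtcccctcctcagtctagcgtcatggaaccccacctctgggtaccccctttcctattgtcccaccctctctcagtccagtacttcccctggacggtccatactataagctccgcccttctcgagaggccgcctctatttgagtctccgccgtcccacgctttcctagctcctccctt

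TGACNNNGC begins 47 bases before the start in Psmb5 and 9 bases before it in Psmb6. CCGGAAG lies 26 bases before the start in Psmd2 and 11 in Psmd11, and Psmd11 also holds TTTCNNTTT, 170 bases before its start. RefSeq lists another start for Psme2, and neither of its windows, nor that of Psme1, holds any of these letters, the CCAAT box or TGAGNNNGC. A match is a run of letters and not a measured binding site, and a window without one says only that these letters are not in it.

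RefSeq promoters were matched for 39 of the 47 genes, 42 promoters in all. CCGGAAG occurred in 14 of these 42 promoters, 33.3%, against 6.91% of all 32851 promoters and 15.1% of the 8937 promoters of detected genes. TGAGNNNGC occurred in 26.2% of the 42 promoters, against 14.4% of all promoters and 16.1% of those of detected genes. TGACNNNGC was in 11.9% of the 42, against 10.2% of all and 11.9% of those of detected genes, and 33.3% held one or the other of these 2 forms, against 23.0% and 26.0%. CCAAT was in 33.3%, against 33.8% and 34.6%, and TTTCNNTTT in 9.52%, against 9.37% and 7.56%. These shares are descriptions, and promoters of neighbouring starts share sequence. The median GC content was 57.6% in the 42 windows, against 60% in those of detected genes. The CCGGAAG matches lay in 13 genes, among them Psma6, Psmc1, Psmc2, Psmc6, Psmd2, Psmd4, Psmd6, Psmd11, Psmd12, Psme3 and Psme4. The others were Psmg1, which was not detected, and Psmc3ip, which encodes no proteasome subunit and is counted among the 14 promoters.

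Of the 47 genes, 39 were detected, where 39.4% of all genes with a protein-coding transcript were. The median of their mean levels was 19.6 TPM over the 47 genes, against 0.373 TPM over all genes with a protein-coding transcript, and 6.16 TPM where only their protein-coding transcripts were counted. Over detected genes it was 21.4 TPM, against 10.0067 TPM, and 32 of the 39 lay above that last value. Together the 47 genes took 0.138 ± 0.00341% of all TPM and 0.124 ± 0.00786% of all expected counts (SD, n = 3). Of the levels, 27 lay between 10 and 60 TPM, 2 above 100 TPM and 13 under 5 TPM.

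**Figure D1:**
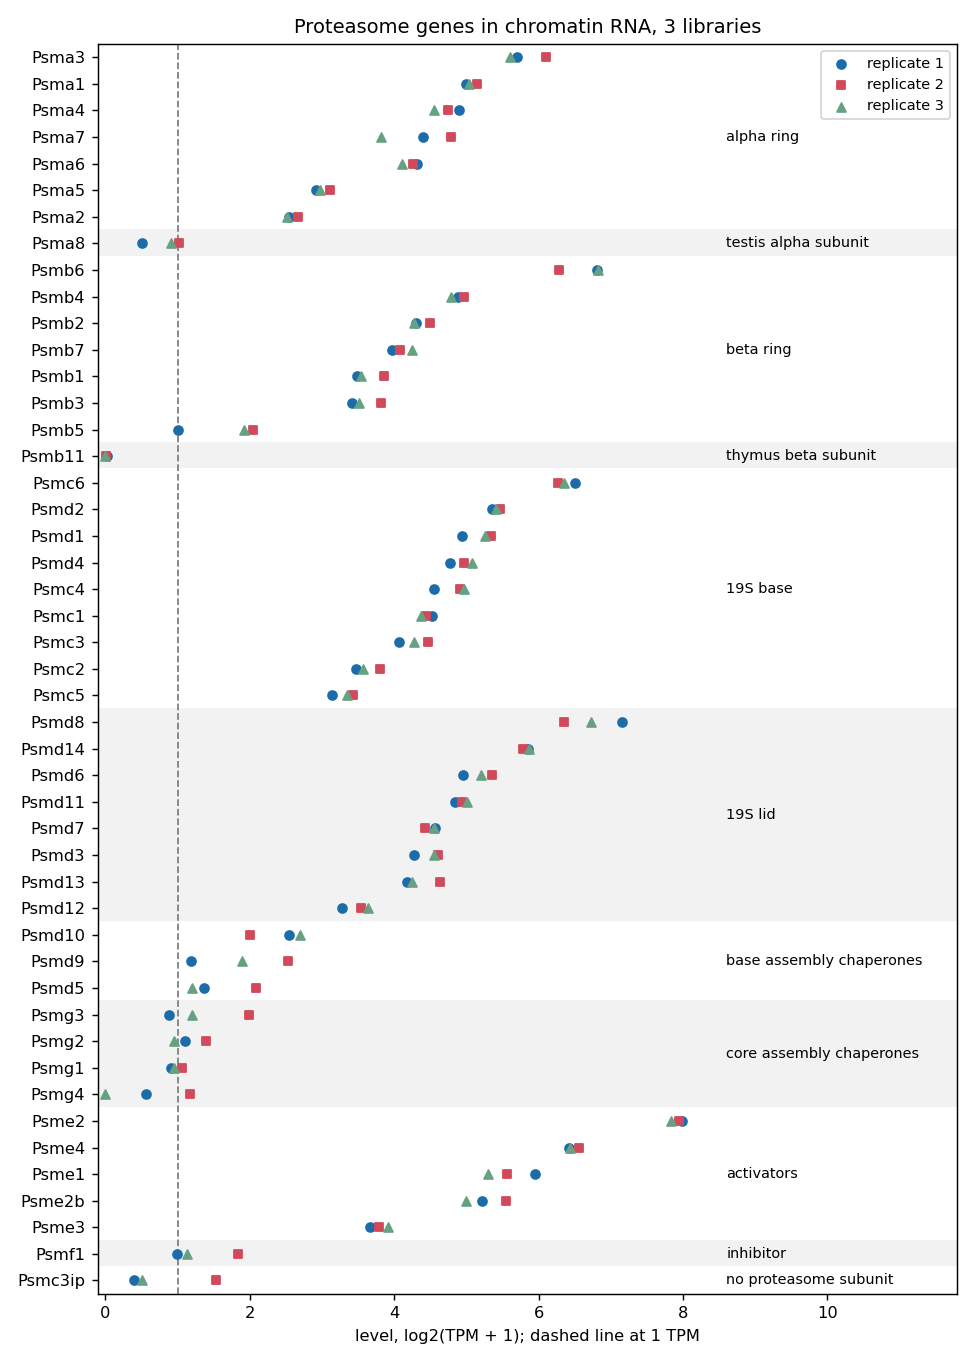
Level of each of the 47 genes on a log2(TPM + 1) axis, with a symbol for each of the 3 libraries and the genes grouped by role. All 31 subunits of the core and regulatory particles lie at or right of the dashed line at 1 TPM, and the 4 core assembly chaperones lie around it.

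All 7 alpha-ring genes were detected, with means between 4.97 TPM for Psma2 and 55.5 TPM for Psma3, an 11.2-fold range. Alpha subunits form the outer rings and the gate of the core particle. Psma3 had 51.0, 67.98 and 47.4 TPM in replicates 1, 2 and 3. Psma1 had 30.9, 34.4 and 31.7 TPM, and the lowest Psma3 value lay above the highest of Psma1. Psma7 had 20.1, 26.7 and 13.2 TPM, the widest relative spread of the ring, with a coefficient of variation (CV, the SD as a percentage of the mean) of 33.8%. Psma6 had 18.9, 18.2 and 16.2 TPM, inside the range of Psma7. Psma4 averaged 25.6 ± 3.15 TPM, Psma5 7.01 ± 0.595 TPM and Psma2 4.97 ± 0.335 TPM (SD, n = 3). Every library of Psma2 was below every library of Psma5, and both were below the other alpha genes in every library, in the alignment-based tables. This order was lost in the read-based tables, where Psma2 averaged 29.5 TPM, above Psma5 with 26.2, Psma6 with 27.3 and Psma7 with 23.1 TPM. The range of the ring was 3.77-fold there. With protein-coding transcripts only, Psma3 averaged 6.16 TPM, below Psma1 with 13.7 and Psma4 with 13.8 TPM. Psma7 was then the lowest with 3.28 TPM, and the range of the ring was 4.21-fold.

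The beta ring held the widest range among the particle's parts, 43.4-fold, and both ends were catalytic genes. Psmb6, the subunit with caspase-like activity, lies on chromosome 11 at 70525367 to 70527858 in mm10, plus strand. It had 111, 76.5 and 112 TPM. Psmb7, the subunit with trypsin-like activity, at 38588036 to 38644087 on the minus strand of chromosome 2, had 14.7, 15.8 and 18 TPM. Psmb5, the subunit with chymotrypsin-like activity, at 54614119 to 54618022 on the minus strand of chromosome 14, had 1.01, 3.11 and 2.79 TPM. The 3 catalytic genes did not overlap in any pair of libraries, and Psmb5 was the lowest of the 31 particle genes. With protein-coding transcripts only, Psmb5 and Psmb7 both averaged 2.30 TPM, Psmb3 was lower at 1.54 TPM, and the range of the ring was 11.1-fold. Psmb5 rested on 10, 36 and 26 expected counts, for which exact Poisson 95% intervals gave 0.484 to 1.86, 2.18 to 4.31 and 1.82 to 4.09 TPM. Such intervals cover counting error only. The interval of replicate 1 lay below that of replicate 2 and slightly overlapped that of replicate 3.

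The other beta genes, which build the ring without an active site, lay between the catalytic ones. Psmb4 had 28.4, 30.1 and 26.6 TPM. Psmb2 had 18.8, 21.7 and 18.4 TPM. Psmb3 had 9.70, 13.1 and 10.4 TPM, which overlapped the 11.4 ± 1.80 TPM (SD, n = 3) of Psmb1. Psmb4 and Psmb2 did not overlap in these libraries.

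In the base of the regulatory particle all 9 genes were detected, with means between 8.91 TPM for Psmc5 and 82.2 TPM for Psmc6. Psmc1 to Psmc6 encode the ring of ATPases that unfolds the substrate, Psmd1 and Psmd2 the scaffold beside it, and Psmd4 a ubiquitin receptor. Psmc6 had 89.8, 76.1 and 80.8 TPM, and each of these values was above that of the other base genes in any library. Psmd2 had 39.8, 43.2 and 41.6 TPM. Psmc4 had 22.4, 29.0 and 30.3 TPM, lowest in replicate 1. The remaining ATPase genes were lower on average. Psmc3 had 15.8, 21.2 and 18.3 TPM and Psmc5 had 7.80, 9.78 and 9.16 TPM. The ATPases thus differed 9.22-fold in mean level although the ring holds them in equal number. Psmd1, Psmd4, Psmc1 and Psmc2 averaged 35.5 ± 5.15, 29.8 ± 3.19, 20.8 ± 1.20 and 11.3 ± 1.48 TPM (SD, n = 3). With protein-coding transcripts only, Psmc6 averaged 11.3 TPM, below Psmd1 with 21.3, Psmd4 with 17.1, Psmc1 with 15.0 and Psmd2 with 14.8 TPM. The highest ATPase gene was then Psmc1, and the lowest Psmc5 with 2.42 TPM. In expected counts Psmd1 had 950, 1611 and 1515, above the 779, 895 and 921 of Psmc6 in each library. The first place of Psmc6 in the base therefore depends on what is counted.

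All 8 lid genes were detected too, between 10.2 TPM for Psmd12 and 109 TPM for Psmd8. The lid removes ubiquitin from the substrate, and Psmd14 is its deubiquitinating enzyme. Psmd8, a structural lid subunit, had 142, 80.3 and 105 TPM. Psmd14 had 57.0, 54.0 and 57.6 TPM. The libraries differed 3.46% in CV for Psmd14, the smallest CV of the detected genes, and 28.5% for Psmd8, which was lowest in replicate 2. Psmd6 had 30.1, 39.9 and 35.8 TPM. Psmd11 had 27.6, 29.8 and 31.2 TPM, and Psmd3 had 18.3, 23.4 and 22.4 TPM. Psmd13 had 17.1, 23.9 and 17.98 TPM, a range that overlapped that of Psmd3. Psmd7 averaged 21.9 ± 1.23 TPM and Psmd12 10.2 ± 1.43 TPM (SD, n = 3).

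Core genes had a lower median level than regulatory-particle genes in each library. The median over the 14 core genes was 18.8, 19.9 and 17.1 TPM in replicates 1, 2 and 3, against 22.6, 29.0 and 30.3 TPM over the 17 regulatory-particle genes. The difference of the medians of log2(TPM + 1), core minus regulatory particle, was -0.25, -0.52 and -0.79, with a mean of -0.52 ± 0.27 (SD, n = 3), negative in 3 of 3 libraries. An exact two-sided sign-flip test over the libraries gave p = 0.25, the smallest value that 3 libraries allow. The mean difference was -0.13 with the read-based tables and -0.89 with CPM, expected counts scaled to library size without a length correction.

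The activators were, as a class, the highest of the groups, with a median of 48.6 TPM over 5 genes, all detected. Psme1 and Psme2 encode the subunits of the activator ring that interferon gamma induces, Psme3 that of a nuclear relative of it, and Psme4 a large single-chain activator. Psme2, at 55587441 to 55591113 on the minus strand of chromosome 14, had 252, 246 and 227 TPM. By TPM it was the highest of the 47 genes in every library. Its mean of 242 ± 12.6 TPM (SD, n = 3) stood at the 99.2nd percentile of all genes with a protein-coding transcript. Psme1, which lies 5911 bases before Psme2 on the same chromosome and the opposite strand, had 61.0, 46.3 and 38.5 TPM. Psme1 was below Psme2 in every library although their proteins assemble in 1 ring. Psme4 had 84.9, 93.4 and 85.7 TPM. Psme3 had 11.7, 12.9 and 14.1 TPM, the lowest activator in every library.

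Psme2b, a gene without introns in this annotation and a near-copy of Psme2, had 36.3, 45.7 and 30.8 TPM. Its single transcript of 837 bases lies wholly inside the annotated span of Gm12185 on the same strand, which had 7.98 TPM on average. It also shares 41 bases with 9930111J21Rik1, which had 72.1 TPM on average. Reads that fit Psme2 and Psme2b alike can be split between them only by estimation, so both levels are uncertain by an amount the files do not give.

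The assembly chaperone genes among the 47 had levels of at most 5.46 TPM in the alignment-based tables. In the read-based tables the highest was 8.91 TPM, for Psmd9 in replicate 2. Pomp, another chaperone of the core, has another symbol and is given with the pathway genes. Psmd5, Psmd9 and Psmd10 encode chaperones of the base, and all 3 were detected. Psmd10 had 4.82, 3.00 and 5.46 TPM. Psmd9 had 1.28, 4.79 and 2.72 TPM, and Psmd5 had 1.57, 3.26 and 1.29 TPM. Psmd9 and Psmd5 were highest in replicate 2, where Psmd10 was lowest. Psmg1 to Psmg4 encode chaperones of the core, and none of the 4 was detected. Psmg1 had 0.88, 1.08 and 0.94 TPM from 5, 8 and 7 expected counts. Psmg2 had 1.14, 1.64 and 0.93 TPM, and Psmg3 had 0.84, 2.97 and 1.30 TPM. Each of these 3 genes passed 1 TPM in at least 1 library, so not detected does not mean absent. In the read-based tables Psmg2 had 2.30, 2.94 and 2.52 TPM and would count as detected. Psmg4 had 0.48 and 1.25 TPM in replicates 1 and 2 and was listed at 0 in replicate 3, where a count of 0 allows up to 0.675 TPM (3 counts).

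Psmf1, the gene of a proteasome inhibitor, had 0.99, 2.56 and 1.20 TPM and missed the threshold in replicate 1. Its read-based levels were 1.57, 3.37 and 1.95 TPM, which pass it in every library. Psma8, the alpha subunit of the testis, had 0.42, 1.02 and 0.87 TPM from 7, 14 and 16 expected counts. Its protein-coding transcripts had 0.17, 0 and 0 TPM of that. Psmb11, the beta subunit of the thymic cortex, had 1, 1 and 0 expected counts. Psmc3ip had 0.32, 1.88 and 0.42 TPM. In the tables made by alignment, Psma8 was thus near the detection limit over all its transcripts, and under it over the protein-coding ones. Psmb11, with 0.02, 0.01 and 0 TPM, was far under it.

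Each catalytic gene was set against its interferon-induced counterpart, the subunit that takes its place in the immunoproteasome. Psmb6 had 111, 76.5 and 112 TPM, against 23.97, 22.4 and 8.65 TPM for Psmb9, and the log2(TPM + 1) difference was 2.48 ± 0.95 (SD, n = 3). Psmb7 had 14.7, 15.8 and 18 TPM, against 32.9, 40.6 and 24.99 TPM for Psmb10, a difference of -0.96 ± 0.45 (SD, n = 3). Psmb5 had 1.01, 3.11 and 2.79 TPM, against 20.4, 16.4 and 11.4 TPM for Psmb8, a difference of -2.40 ± 0.90 (SD, n = 3). The constitutive gene was thus the higher one in 3 of 3 libraries for the first pair and the lower one in 3 of 3 for the other 2 pairs. No pair overlapped. The exact two-sided sign-flip test gave p = 0.25 for each of the 3 pairs and 0.25 after Benjamini-Hochberg adjustment, again the smallest value possible. The order of the last 2 pairs depends on what is counted. With CPM, Psmb7 was above Psmb10, by 1.18 on the log2(CPM + 1) scale, and the difference of Psmb6 and Psmb9 was 0.87. With protein-coding transcripts only, Psmb5 averaged 2.30 ± 1.13 TPM, against 1.28 ± 0.176 TPM for Psmb8 (SD, n = 3), a difference of 0.47 on the log2(TPM + 1) scale with an exact sign-flip p of 0.5.

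**Figure D2:**
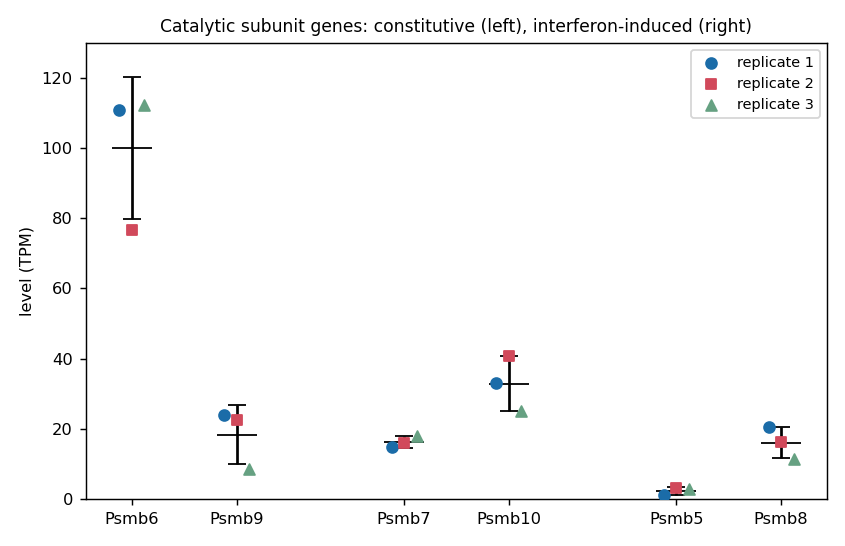
Level in TPM of the 3 constitutive catalytic genes, each left of its interferon-induced counterpart, with a symbol for each library, the mean as a horizontal line and the SD over 3 libraries as a bar. Psmb6 lies between 76.5 and 112 TPM, above Psmb9, while Psmb7 lies below Psmb10 and Psmb5 below Psmb8 in every library.

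Most proteasome genes had a small spread between libraries. The median CV was 12.5% over the 39 detected genes, against 22.7% over all detected genes with a protein-coding transcript. The CV was below 20% in 30 genes, between 20 and 40% in 6 and above 40% in 3. Of the 31 particle genes 27 were below 20%. No background share is given for these counts. The median CV was 20.1% where only protein-coding transcripts were counted. It was 8.23% without replicate 1, 8.80% without replicate 2 and 15.9% without replicate 3. These last CVs are over 2 libraries and are not directly comparable with those over 3. Detected genes with a protein-coding transcript at a similar level, 1339 genes with a median of 21.7 TPM, had a median CV of 18.4%. The 3 highest were Psmd9 with 60.2%, Psmd5 with 52.2% and Psmb5 with 49.1%, all under 5 TPM, where counts are few. Detected genes with a protein-coding transcript and a mean under 5 TPM had a median CV of 28.4%. The highest library was replicate 2 in 22 of the 39 genes, replicate 3 in 9 and replicate 1 in 8. Replicate 2 was the highest in 55.7% of all detected genes with a protein-coding transcript, so this count stands near the background. Replicate 2 also had the smallest starting amount and the most counts, whose part in these values was not tested.

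**Figure D3:**
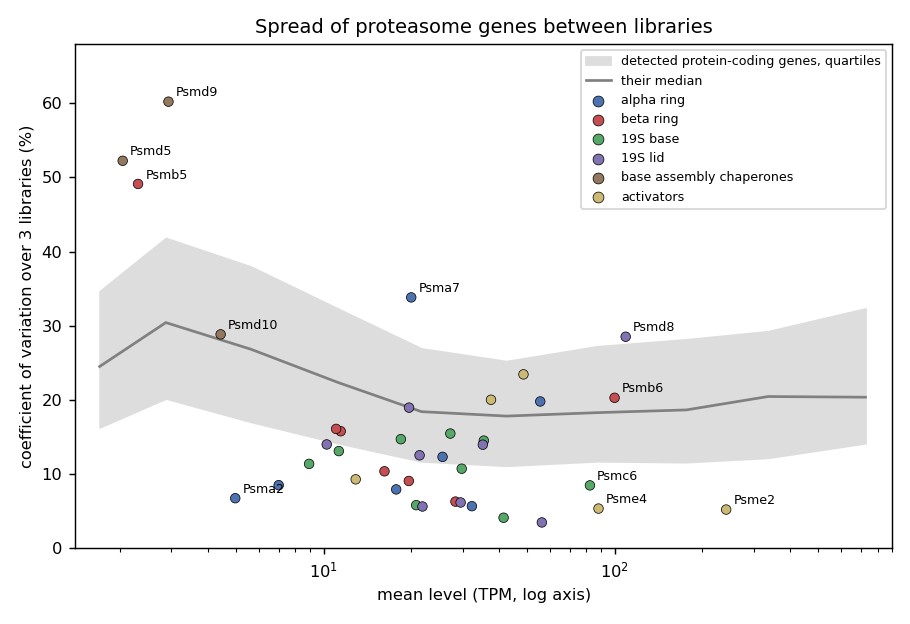
Coefficient of variation over the 3 libraries (%) against mean level (TPM, log axis) for the 39 detected genes, coloured by role, with the median and quartiles of detected genes with a protein-coding transcript in grey. Most subunits lie below the grey median, and Psmd9, Psmd5 and Psmb5 lie above 40% at levels under 5 TPM.

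Much of the signal was assigned to transcripts annotated as not protein-coding. Over the 47 genes, 33.3 ± 3.87% of the transcript TPM was in protein-coding transcripts, 53.3 ± 3.39% in retained-intron transcripts, 10.9 ± 0.199% in processed transcripts and 2.41 ± 0.451% in transcripts annotated for nonsense-mediated decay (SD, n = 3). A retained-intron transcript keeps at least 1 intron and a processed transcript has no open reading frame in the annotation. The protein-coding share was below 50% in 24 of the 39 detected genes, against 42.1% of all detected genes with a protein-coding transcript. Its median was 42.6%, against 56.1% over those genes, and the median retained-intron share was 37.9%, against 26.9%. The top transcript was protein-coding in 21 of the 39 genes, a retained-intron one in 15, a processed one in 2 and, in Psmc5, one annotated for decay. Of the 47 genes, 31 have a retained-intron transcript in the annotation, which decides where such reads can go. The counts by top transcript and of genes with a retained-intron transcript have no background share here. Short transcripts receive a high TPM for few reads: as a share of expected counts, a measure added after the data were seen, the protein-coding part was below 50% in 18 of the 39 genes, against 25.3% of all detected genes with a protein-coding transcript.

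Among activators Psme1 and Psme2 had low protein-coding shares and Psme4 a higher one. Psme2 had 4.49, 15.2 and 18.4% of its TPM in protein-coding transcripts, and Psme1 had 4.33, 15.6 and 20.5%. The highest transcript of Psme2 was a retained-intron form of 490 bases with 80.6, 41.8 and 50.7 TPM. Psme4 had 57.0, 52.3 and 59.2%, and the rest of its TPM was in processed transcripts. Counted by protein-coding transcripts alone, Psme4 was the highest of the 47 genes with 49.3 ± 1.23 TPM, followed by Psmd8 with 39.8 ± 13.4 TPM, Psme2b with 37.6 ± 7.52 TPM and Psme2 with 30.2 ± 16.5 TPM (SD, n = 3). The first place of Psme2 therefore rested on transcripts annotated as retaining introns. Without a length correction it was lost as well. Psme2 had 1423, 1519 and 1466 expected counts, against 3134, 4701 and 4414 for Psme4.

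Among core genes the protein-coding share was lowest on average in Psma3, with 12.4, 10.1 and 11.1%. Psma7 had 8.39, 16.6 and 28.2%, and Psma6 had 34.3, 35.7 and 32.0%. Psma1 had 47.4, 35.8 and 44.7%. Of the beta genes, Psmb6 had 12.3, 17.1 and 21.7% and Psmb7 had 15.1, 12.8 and 14.8%. Psmb3 had 10.9, 14.4 and 16.2% and Psmb4 had 13.1, 14.2 and 22.9%. Psmb2 had 62.0, 45.0 and 25.3%, the widest range of the core genes. In Psmb6, Psmb3, Psmb4 and Psmb7 all other TPM was in retained-intron transcripts, and in Psma6 and Psmb2 all of it was in processed transcripts. Psma2 and Psmb5 have only protein-coding transcripts in the annotation, so their share of 100% is fixed by it.

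In the regulatory particle, Psmc6 had 10.03, 14.5 and 17.2%, Psmc4 had 25.04, 22.05 and 21.5%, and Psmc5 had 7.43, 26.6 and 44.7%. Psmc3 had 39.9, 56.2 and 43.9%, and Psmd2 had 35.1, 31.0 and 41.0%. Psmc5 moved most between libraries, and its only other transcript is one annotated for nonsense-mediated decay. Of the lid genes, Psmd6 had 14.5, 17.4 and 17.3% and Psmd13 had 24.4, 26.0 and 28.2%. Psmd14 had 29.0, 29.8 and 35.7% and Psmd8 had 36.5, 31.5 and 40.2%. Psmd3 had 40.7, 36.5 and 58.7% and Psmd11 had 52.1, 44.8 and 52.3%. Psmd12 has only protein-coding transcripts, and Psmd6 had the lowest share of the lid in every library. The chaperone genes Psmd9, with 21.7, 15.7 and 18.8%, and Psmd5, with 21.02, 25.8 and 24.03%, were among the low ones.

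The share also differed between libraries. Summed over the 47 genes, protein-coding transcripts took 29.4, 33.4 and 37.1% of the TPM in replicates 1, 2 and 3. In 34 detected genes the share could vary and did, and it was lowest in replicate 1 in 18, in replicate 2 in 12 and in replicate 3 in 4. Replicate 1 was the lowest in 45.3% of all detected genes with a protein-coding transcript whose share varied. The counts for replicates 2 and 3 and the summed shares have no background here, so none of this is shown to be particular to these genes. Replicate 1 had the largest starting amount and the fewest counts, whose part in these shares was not tested.

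**Figure D4:**
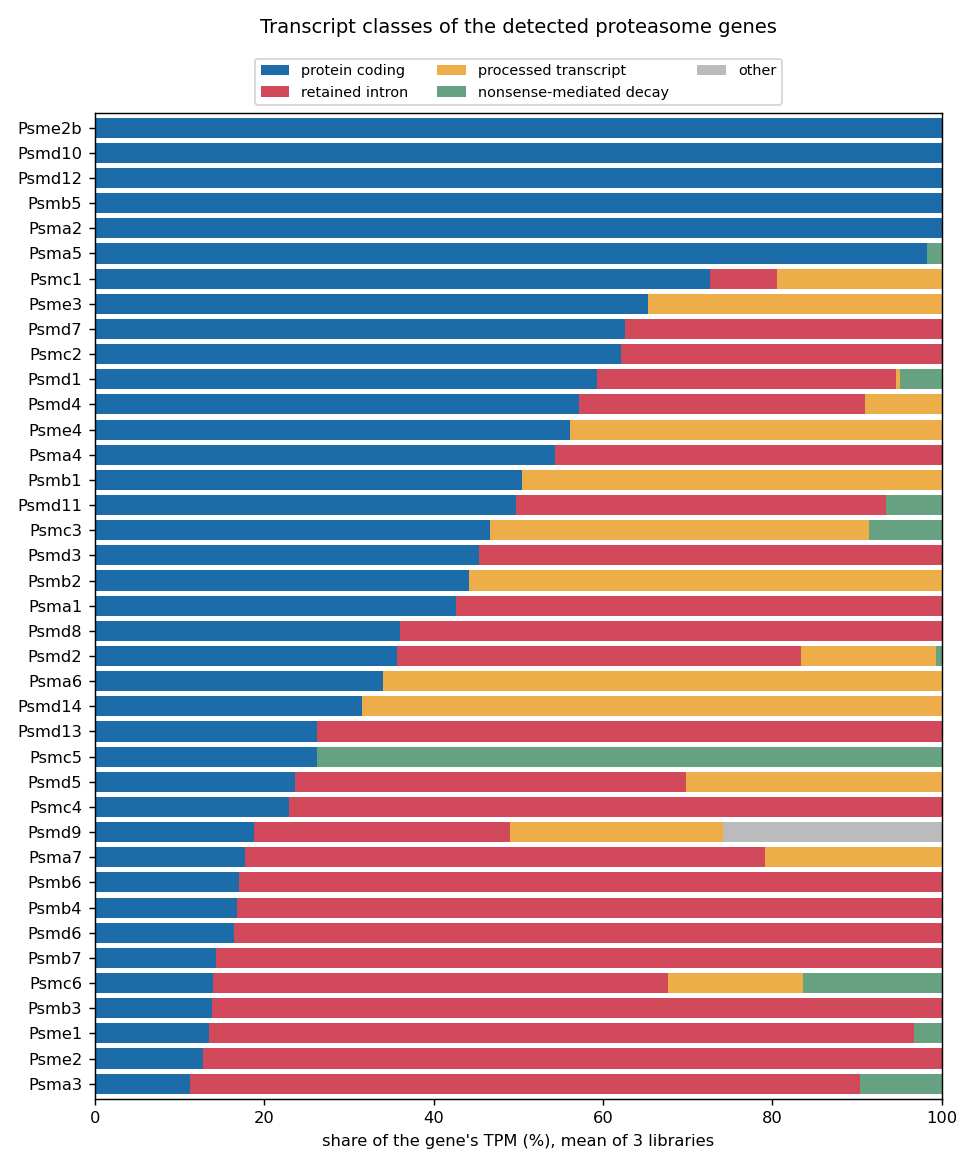
Share of each detected gene's TPM (%, mean of 3 libraries) in protein-coding, retained-intron, processed, decay and other transcripts, one bar a gene, sorted by the protein-coding share. The bars run from 100% protein-coding in Psma2, Psmb5, Psmd10, Psmd12 and Psme2b down to 11.2% in Psma3.

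The tables made directly from reads gave higher levels for 45 of the 47 genes, a count without a background share here. Pearson's r between the mean log2(TPM + 1) of both kinds of table was 0.960 over these 47 genes, which share their libraries. The median ratio, read-based over alignment-based, was 1.35 over the 39 detected genes, against 1.30 over all detected genes with a protein-coding transcript. Psme1 with 0.795 and Psmg3 with 0.754 were lower in the read-based tables. Of the genes with a mean of at least 1 TPM, 9 had a ratio over 2, a count without a background share here. Quantified from reads, Psma2 had 19.3, 32.8 and 36.4 TPM, against 4.84, 5.35 and 4.72 TPM by alignment. The excess was in 1 transcript, Psma2-202, with 14.0, 27.2 and 31.9 TPM, against 0, 0.19 and 0 TPM. Psma2-201, the other transcript, had 5.28, 5.56 and 4.50 TPM, against 4.84, 5.16 and 4.72 TPM. Psma5 had a ratio of 3.73, and its transcript Psma5-202, annotated for decay, had 19.6, 12.7 and 10.8 TPM, against 0, 0.41 and 0 TPM. Psma5-201, which is protein-coding, was higher from reads too, with 12.3, 12.9 and 10.3 TPM, against 6.52, 7.27 and 6.83 TPM.

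As a ratio, Psmb11 differed most between the kinds of table. Its read-based levels were 2.20, 3.62 and 2.79 TPM, all in its transcript of 4247 bases, from 157, 431 and 290 estimated counts. The alignment-based tables gave it 1, 1 and 0 expected counts. Psmb11 lies 3410 bases from Psmb5, on the opposite strand. By the read-based tables it would count as detected, so its level is not settled by these files.

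**Figure D5:**
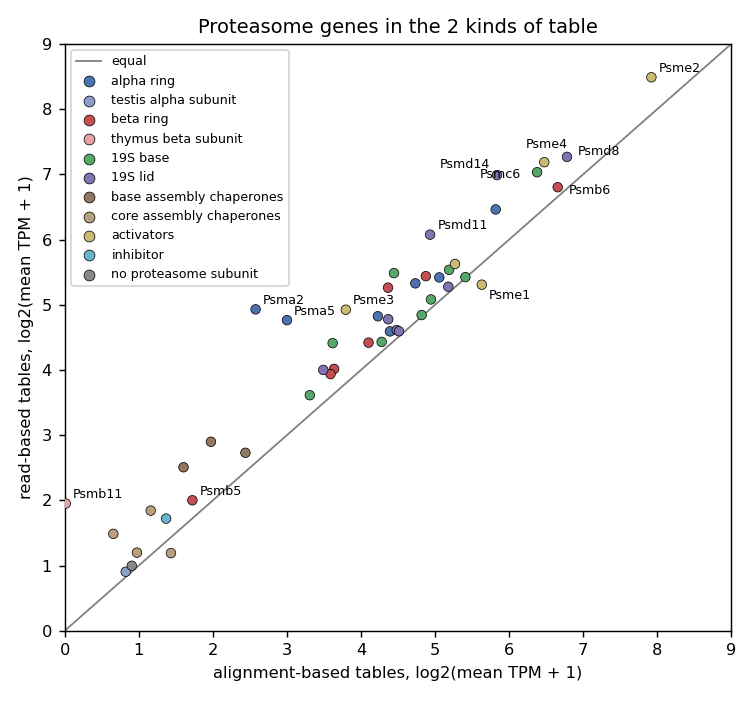
Mean level of each of the 47 genes in the read-based tables against that in the alignment-based tables, both as log2(mean TPM + 1), coloured by role, with the line of equality. Most genes lie slightly above the line, and Psma2, Psma5 and Psmb11 lie farthest above it.

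The genes are spread over 16 chromosomes, with 10 of them on chromosome 11 and 6 each on chromosomes 2 and 14. In the annotation 21 overlap another gene, 16 of them on the opposite strand, and no background share is given for these counts. The tables do not say whether strand was used, so reads in such stretches can belong to either gene. Psma3 overlaps 3110056K07Rik, which had 24.4 TPM on average, by 4733 bases. Psmc3 overlaps Slc39a13, which had 42.0 TPM on average, by 4579 bases, and Psmd1 overlaps Htr2b, with 15.4 TPM, over its whole length of 12945 bases. The levels of Psma3, Psmc3 and Psmd1 are uncertain to that extent. Pseudogenes left out by the rule, Psmb5-ps, Psmb6-ps, Psmb6-ps2 and Psmb7-ps2, had between 0 and 1 expected count in each library.

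Across the 39 detected genes the mean level went with shorter length, with Pearson's r of -0.42 between log2 TPM and log2 length, and with a lower protein-coding share, with r of -0.41. Genes are not independent replicates and the level, the length and the share come from the same estimate, so these are descriptions.

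Among a list of genes that act with the proteasome, chosen with earlier results of these data known, 28 of 29 matched genes were detected, where 39.4% of all genes with a protein-coding transcript were. Their median was 18.5 TPM, beside 19.6 TPM for the 47 genes. Nfe2l1 had 124, 59.4 and 106 TPM. Nfe2l2, which encodes the related factor of the oxidative stress response, averaged 256 ± 77.2 TPM (SD, n = 3). Ddi2, the protease that activates the Nfe2l1 protein, averaged 5.39 ± 1.17 TPM and Ngly1, which removes its sugars, 17.2 ± 2.64 TPM (SD, n = 3). Of the other regulatory-particle genes, Adrm1, a ubiquitin receptor, averaged 44.5 ± 4.19 TPM and Sem1 18.4 ± 0.880 TPM (SD, n = 3). The deubiquitinases Usp14 and Uchl5, which bind the regulatory particle, averaged 32.3 ± 3.55 and 4.76 ± 0.766 TPM (SD, n = 3). Pomp, the chaperone that matures the core, averaged 18.5 ± 1.65 TPM (SD, n = 3), above each of Psmg1 to Psmg4 in every library. Vcp, the unfoldase that hands substrates to the proteasome, averaged 107 ± 11.0 TPM, and the stress-linked cofactor Zfand5 85.1 ± 15.2 TPM (SD, n = 3). Ubqln2, a shuttle factor for ubiquitinated proteins, was the 1 matched gene that was not detected, with 0.28, 0.20 and 0.27 TPM.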

How the data were processed

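Total RNA-seq of the chromatin fraction was deposited for 3 libraries, each with alignment-based tables of genes and transcripts and a read-based transcript table. Build mm10 and GENCODE annotation M21 were used, per the file headers and labels. Programs, and whether strand was used, were not given in the sources used here, which are labels and headers. The authors deposited expected counts, estimates of reads per gene or transcript that can be fractions. The TPM values deposited by the authors are relative levels corrected for effective length. The members and lists were chosen with earlier results of these data known. Symbols and transcript classes came from the read-based target names, coordinates from GENCODE M21, and promoters from RefSeq.

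Levels are the gene TPM of the alignment-based tables. Detection was at least 1 TPM in every library, and differences used log2(TPM + 1), which understates those of low genes. Differences within libraries were tested with an exact two-sided sign-flip test over 3 libraries, with Benjamini-Hochberg adjustment over the 3 catalytic pairs. With 1 group, no response was tested. A chi-square test of the members' counts gave 20.0, 10.1 and 9.78 per degree of freedom for the 3 library pairs, over 45 genes with at least 10 counts in a pair, so none was treated as a repeat deposit. Per-library levels were given for the 5 highest and 5 lowest genes, the catalytic and activator genes, the 5 detected genes with the highest CV and those with a protein-coding share below 50%, and others by mean. The CV step was tested on simulated data and the sign-flip step on small known cases. Alternatives were CPM from the expected counts, read-based tables, posterior mean TPM, protein-coding transcripts only, other thresholds and pseudocounts, and each library left out. Python 3.11.15, numpy 2.4.6, pandas 2.3.3, scipy 1.17.1 and matplotlib 3.10.9 were used.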

Additional observations from a re-analysis of the deposited data

How the results depend on the processing

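With 1 group and 3 libraries, no sign-flip test here could pass a threshold of 0.05, so the alternatives bear on directions and sizes alone. The median level of the 47 genes, 19.6 TPM, was 26.4 TPM with the read-based tables, 6.16 TPM with protein-coding transcripts only and 16.7 with CPM, and lay between 17.5 and 20.2 TPM with each library left out. The number detected, 39, lay between 36 and 43 under all alternatives. Core minus regulatory particle stayed negative under every alternative, between -0.89 with CPM and -0.13 with the read-based tables. Psmb7 minus Psmb10 turned to 1.18 with CPM, which are not corrected for length, and Psmb5 minus Psmb8 to 0.47 with protein-coding transcripts only. Both kept their sign under the other alternatives run, and Psmb6 minus Psmb9 kept it under all of them. The median CV, 12.5%, was 12.7% with CPM, 11.1% with the read-based tables, 12.2% with posterior mean TPM and 20.1% with protein-coding transcripts only, and 8.23 to 15.9% with a library left out. The median protein-coding share, 42.6%, was 52.4% as a share of expected counts, an alternative chosen after seeing the data, and 35.97 to 41.9% with a library left out. The cause of these differences was not tested. Among single genes, the level moved by more than the SD of the 3 libraries in 32 of 47 with the read-based tables, in 37 with protein-coding transcripts only and in 5 with posterior mean TPM. Replicate numbers pair no samples across groups, because there is 1 group. The differences that were tested were between genes of the same library. Depth limits Psmb5, Psmg1 to Psmg4, Psma8 and Psmc3ip most, which had the fewest expected counts apart from Psmb11.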
